A study of Mus musculus with 19 samples.

Results

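The Mx, Ifi27 and Ifi44 antiviral effectors and 6 companions, 10 genes in all (Ifi27, Ifi27l2a, Ifi27l2b, Mx1, Mx2, Rsad2, Bst2, Ifi44, Xaf1 and Rtp4), were followed in hepatocytes of young and old mice. They were picked by symbol from the 24537 genes of the deposited count table, with the old-against-young results of these same libraries already known. Their age differences are therefore descriptions: no p is given for them, and edgeR calls by age are only counted, beside the share over all genes, and support nothing. All 10 were found once each, and all 10 passed the filter on low counts. The 19 libraries were made from poly(A) RNA of hepatocytes, isolated by perfusing the livers of male C57BL/6J mice of a single line, all labelled WT. The 10 young mice (labelled 5mo) were aged 140 days (first cull day) or 163 days (second cull day), counted from the labelled birth dates. The 9 old mice (labelled 24mo) were aged 719 and 742 days. Each cull day held 5 young mice, with 5 old mice on the first and 4 on the second. The contrast of old with young could thus be told apart from cull day. Within each age the mice of the second cull day were also 23 days older, so a cull day difference and those 23 days of age cannot be told apart. The mice had no treatment or engineered allele in the labels. Every library carries its own number but no label states outright that each is a separate mouse, so p-values measure the spread between these libraries.

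The 10 genes belong to the interferon response. Type I interferons bind the receptor made of IFNAR1 and IFNAR2, the kinases JAK1 and TYK2 then pass the signal on, and a complex that includes IRF9 binds interferon-stimulated response elements in the promoters of antiviral genes. In liver, hepatocytes and Kupffer cells (the resident macrophages) both answer to interferon. The products act at different steps: Mx proteins are dynamin-like GTPases that block incoming viral nucleoproteins, viperin (Rsad2) makes a nucleotide analogue that stops viral polymerases, and tetherin (Bst2) holds budding virions at the cell surface.

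Promoter sequences from RefSeq (GRCm38.p6, the same assembly as mm10) were held for 4 of the 10 genes, Bst2, Rsad2, Ifi44 and Xaf1. They are shown because these promoters carry matches to the letters that interferon-activated factors read. The whole stretch of 250 bases before the transcript start is given for Bst2 (chr8:71537473-71537722, minus strand) and Rsad2 (chr12:26456453-26456702, minus strand). For Ifi44 (chr3:151749941-151749970, minus strand) and Xaf1 (chr11:72301599-72301628, plus strand), where another transcript model of the same gene starts inside the stretch (49 bases upstream for Ifi44 and 168 for Xaf1), 30 bases around a match are given. For Ifi44 that model is the transcript counted here, so of its printed matches the one from -48 to -41 lies inside the counted transcript and the one from -55 to -48 spans its start. Capitals mark the core of the interferon-stimulated response element (ISRE core), spelled GAAA, any 2 bases, GAAA, and AANNGAAA, the shorter core read by interferon regulatory factors, on either strand.
Bst2: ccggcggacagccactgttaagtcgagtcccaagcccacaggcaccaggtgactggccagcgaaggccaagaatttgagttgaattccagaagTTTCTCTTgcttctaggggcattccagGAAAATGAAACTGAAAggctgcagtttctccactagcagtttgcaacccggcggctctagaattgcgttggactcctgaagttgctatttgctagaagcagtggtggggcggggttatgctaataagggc
Rsad2: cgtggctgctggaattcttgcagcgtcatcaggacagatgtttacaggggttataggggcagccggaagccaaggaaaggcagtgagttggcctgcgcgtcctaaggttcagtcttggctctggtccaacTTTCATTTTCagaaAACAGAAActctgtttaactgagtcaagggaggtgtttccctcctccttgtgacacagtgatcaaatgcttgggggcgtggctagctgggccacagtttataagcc
Ifi44: cagagTTTCAGTTTTCGTTTcccgagcagg
Xaf1: gctgggcaaacacTTTCAGTTttgttttcc
Bst2 held 2 overlapping ISRE core matches (from base -130 to -121 and from -124 to -115, counted back from the transcript start), and Rsad2 held 1 on the opposite strand (from -120 to -111). Over the same 250 bases, 2.98% of the 32851 promoters in the table held it. Ifi44 and Xaf1 held none within these bases. All 4 held AANNGAAA, which every ISRE core match contains and which 21.3% of promoters held. Another motif searched, TTC, any 3 bases, GAA, matched in Bst2 (from -136 to -128) and not in the other promoters shown. Over the same 250 bases 7.02% of promoters held it, and capitals do not mark it. A match is a stretch of letters and not a measured binding site.

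Before the values, 2 features of the libraries bear on them. Counts in genes ran from 17381439 to 20287628 per library, and no 2 libraries of one age agreed within sampling noise (lowest chi-square per degree of freedom 14.5). Old mouse 1187 stood apart: it was the highest of all 19 libraries for 9 of the 10 genes, a position it held for 19.8% of the 12269 genes tested. Its summed level of 14 Kupffer cell and macrophage markers was 3392 CPM (counts relative to library size, scaled by the trimmed mean of M-values), against at most 831 CPM in the other old mice. Hepatocyte markers were high in every library (88154 to 192712 CPM summed over 9 genes), with mouse 1187 the lowest of the old mice at 115249 CPM. In edgeR 2 of these 9 were higher and 4 lower in old mice. Young mice 1184, 1186 and 1188, all of the first cull day, had 5.82% to 6.29% of their counts in albumin, against 10.2% to 11.1% in the other young mice. As these are bulk libraries, more cells of a type and more RNA per cell cannot be told apart.

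The ISG12 genes Ifi27, Ifi27l2a and Ifi27l2b encode small hydrophobic proteins of mitochondrial and nuclear membranes, and sit together on chromosome 12. They gave the clearest separation of the ages. Ifi27 (103434189 to 103440245) ranged from 40.3 through a median of 72.5 to 81.0 CPM in young mice, and from 109.7 through 143 to 227 CPM in old mice. Every old mouse was above every young mouse. Its log2 fold change, old over young with cull day in the edgeR model, was 1.09 (SE 0.138). Ifi27l2a (103433873 to 103443680) ranged from 3.05 through 5.00 to 7.90 CPM in young mice and from 8.33 through 10.3 to 28.9 CPM in old mice. Again no old mouse overlapped a young one, and the log2 fold change was 1.13 (SE 0.222). The separation of these 2 genes may be set beside all tested genes, of which 0.978% had every old library above every young library. Because the members were chosen with this comparison known, nothing is read from that contrast.

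The Ifi27 and Ifi27l2a rows are not independent. The transcript used for Ifi27l2a spans the whole of Ifi27 on the opposite strand (6057 shared bases), the command in the file header names no strand option, and reads from overlapping exons could have been counted for both. Ifi27 stood at 9.94 to 21.7 times the CPM of Ifi27l2a among young mice and at 7.83 to 18.6 times among old mice. How much of either row is shared reads was not tested. Near-identical stretches in this family could also split reads.

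Ifi27l2b (103450898 to 103457223) had the largest log2 fold change of the 10 genes over all 19 mice, though on the first cull day alone Ifi44 was larger (2.07 against 1.77). It ranged from 1.08 through 2.94 to 13.2 CPM in young mice and from 9.99 through 15.7 to 50.3 CPM in old mice, with a log2 fold change of 2.08 (SE 0.359). Of the 9 old mice, 8 lay above all young mice. The young mice were far from uniform. Mice 1186, 1184 and 1188, those with a low albumin share, had 13.2, 8.42 and 7.21 CPM, and the other 7 young mice had 1.08 to 4.05 CPM. Without these 3 mice the log2 fold change was 2.88, and all 9 old mice lay above the remaining young mice. The same 3 mice did not lead for Ifi27, at 52.4 to 80.1 CPM among young mice that reached 81.0 CPM. Within the ISG12 genes, Ifi27l2b made up a median of 3.24% of the summed level per kilobase of exon in young mice (2.21% to 17.5%) and 9.41% in old mice (5.68% to 15.1%).

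**Figure D1:**
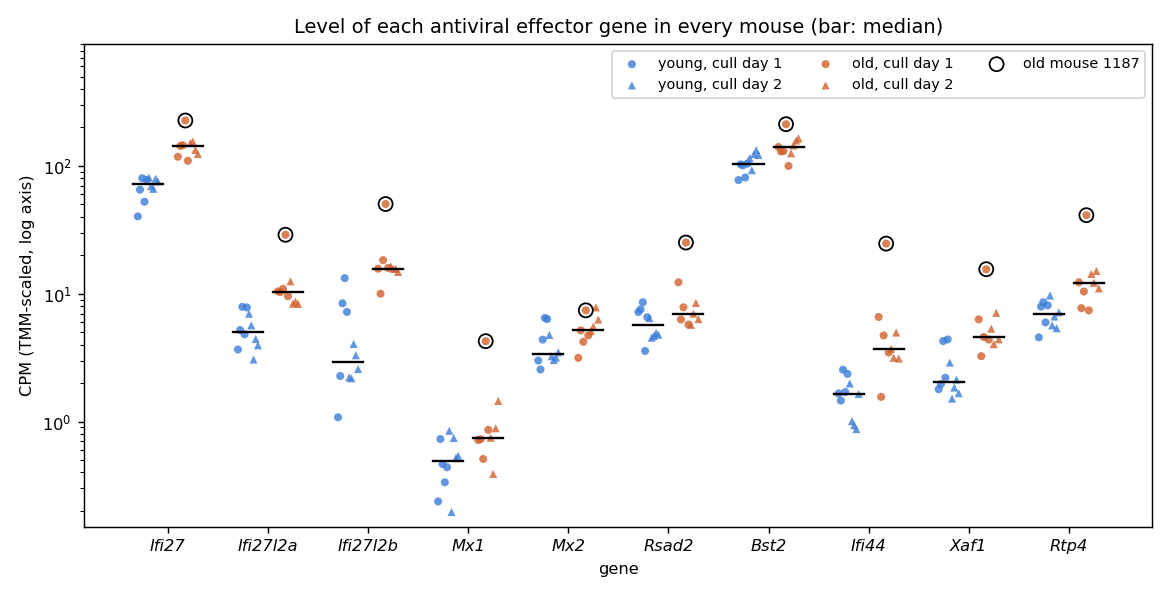
Level of each of the 10 genes in every mouse, in CPM on a log axis, with young mice in blue, old mice in orange, circles for the first cull day, triangles for the second and bars at the group medians. For Ifi27 and Ifi27l2a the orange and blue points do not overlap, and the ringed old mouse 1187 is the highest point for every gene but Mx2.

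The Mx genes lie close together on chromosome 16. C57BL/6 is a strain long known to carry defective Mx alleles, and RefSeq lists both Mx1 and Mx2 on this assembly as transcribed pseudogenes, so their rows report transcripts and not a working antiviral protein. Mx1 (97447037 to 97462905) was the lowest of the 10 genes, with 3.5 to 14.5 counts per young library and 8 to 97.5 per old library, barely above the floor of 3 counts at its lowest. In CPM this was 0.196 through 0.491 to 0.846 in young mice and 0.389 through 0.746 to 4.25 in old mice. Only 4 of 9 old mice exceeded all young mice, and the log2 fold change of 1.19 (SE 0.420) became 0.63 (SE 0.269) without mouse 1187, which had 2.93 times the level of the next old mouse. Mx2 (97536081 to 97560901) ranged from 2.55 through 3.36 to 6.46 CPM in young mice and from 3.15 through 5.17 to 7.82 CPM in old mice, the highest being mouse 1240 and not 1187. The ages overlapped for most mice, with 2 of 9 old mice above all young mice and a log2 fold change of 0.44 (SE 0.198). Young mice 1186 and 1188 again held the top places among the young, at 6.46 and 6.33 CPM. Without the 3 young mice of low albumin share the Mx2 log2 fold change was 0.81.

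Rsad2 on chromosome 12 (26442743 to 26456452), whose promoter is shown above, ranged from 3.57 through 5.69 to 8.58 CPM in young mice and from 5.71 through 6.97 to 25.1 CPM in old mice. The medians were close and only 2 old mice, 1187 and 1181, stood above all young mice. Its log2 fold change of 0.62 (SE 0.236) was 0.35 (SE 0.163) without mouse 1187. Bst2 on chromosome 8 (71534262 to 71537437) ranged from 77.5 through 103.6 to 132.7 CPM in young mice and from 100.01 through 140.5 to 212 CPM in old mice. Of the old mice, 5 were above all young mice, and the log2 fold change was 0.48 (SE 0.117), a small difference on a high level. Bst2 is also a surface marker of plasmacytoid dendritic cells. The 7 other markers of those cells summed to 0.112 to 7.83 CPM in young mice and 0.402 to 16.4 CPM in old mice. The part of those cells in the Bst2 level was not tested.

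Ifi44 on chromosome 3 (151730923 to 151749959) encodes an interferon-induced cytoplasmic protein. It ranged from 0.873 through 1.65 to 2.54 CPM in young mice and from 1.56 through 3.70 to 24.7 CPM in old mice. All old mice but mouse 1183 were above all young mice, and mouse 1187 had 3.75 times the level of the next. The log2 fold change was 1.83 (SE 0.379), and 1.29 (SE 0.235) without mouse 1187. Xaf1 on chromosome 11 (72301629 to 72313733), named for its binding to the apoptosis inhibitor XIAP, ranged from 1.51 through 2.04 to 4.39 CPM in young mice and from 3.25 through 4.58 to 15.5 CPM in old mice. The 2 highest young mice were 1188 and 1184. The log2 fold change was 1.29 (SE 0.268), with 6 of 9 old mice higher than every young one. Rtp4 on chromosome 16 (23609919 to 23614222), a chaperone of membrane receptors, ranged from 4.55 through 6.89 to 9.68 CPM in young mice and from 7.40 through 12.2 to 41.2 CPM in old mice. Its log2 fold change of 1.06 (SE 0.268) was 0.68 (SE 0.153) without mouse 1187, and 7 of 9 old mice exceeded all young mice.

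In all 10 genes the old mean was above the young mean. The median log2 fold change over the 10 genes was 1.11, and 0.79 without mouse 1187, against -0.003 over all tested genes. In edgeR's quasi-likelihood test with adjustment over all genes, 8 of the 10 were past an adjusted p of 0.05 in the higher direction and 0 in the lower, beside 16.3% of all tested genes higher and 14.5% lower. The exceptions in edgeR were Mx2 and Rsad2. DESeq2 called 9 of the 10, among 4114 genes called by age (2001 higher, 2113 lower), and limma-voom 7, among 3382 (1662 higher, 1720 lower). Without mouse 1187 the count was 7, Mx1 no longer being among them, beside 12.4% of genes higher. On the first cull day alone it was 1 (Ifi27), where 3.67% of genes passed in either direction, and on the second 8, where 19.3% passed. The 8 of the second day were not the same set, since Mx2 passed there and Mx1 did not. As the members were chosen on this contrast, these counts describe them and support nothing.

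Levels were compared between genes as CPM per kilobase of exon. In young mice the order was Bst2 (139 ± 24.1, SD, n = 10), Ifi27 (65.8 ± 12.8), Ifi27l2a (8.10 ± 2.61), Rtp4 (4.44 ± 1.03), Ifi27l2b (4.29 ± 3.52), Mx2 (1.68 ± 0.584), Rsad2 (1.56 ± 0.426), Xaf1 (0.951 ± 0.405), Ifi44 (0.557 ± 0.198) and Mx1 (0.182 ± 0.0784). Bst2 was above Ifi27, and Ifi27 above Ifi27l2a, in all 10 young and all 9 old mice. The neighbours Rtp4 and Ifi27l2b kept their order in only 7 of 10 young mice, as did Mx2 and Rsad2, and those pairs did not differ beyond their spread. In old mice Ifi27l2b (17.7 ± 11.0, SD, n = 9) was above Rtp4 (9.31 ± 6.56) in 9 of 9. Rsad2 (2.49 ± 1.65), Xaf1 (2.35 ± 1.44), Mx2 (2.28 ± 0.618) and Ifi44 (2.14 ± 2.44) lay within one another's spread. Mx1 was last in both ages.

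Cull day was not used to choose the genes and was tested in the same edgeR model. None of the 10 passed (0 of 10 at an adjusted p of 0.05, beside 12.3% of all tested genes, 5.72% being higher on the second day), while 3 of the 10 were at an unadjusted p under 0.05, as were 3684 of the 12269 tested genes. The smallest adjusted p was 0.12, for Rsad2, with a log2 difference of -0.56 (SE 0.237), the second day being lower. Without mouse 1187 that difference was -0.32 (edgeR adjusted p = 0.188). Ifi44 (-0.87, SE 0.380, edgeR adjusted p = 0.132) and Ifi27l2b (-0.81, SE 0.357, edgeR adjusted p = 0.134) were the other two, also lower on the second day. DESeq2 and limma-voom likewise called 0 of the 10, among 2061 and 1438 genes called by cull day. Mouse 1187 and young mice 1184, 1186 and 1188 all belonged to the first day. Without mouse 1187 Bst2 passed, higher on the second day by 0.29 (edgeR adjusted p = 0.0413), and without old mouse 1183 Ifi44 passed at -0.99 (edgeR adjusted p = 0.0456). Leaving out mouse 1187 instead brought Ifi44 to -0.35 (edgeR adjusted p = 0.323) and Ifi27l2b to -0.55 (edgeR adjusted p = 0.272). Without the 3 young mice of low albumin share 0 of all tested genes passed by cull day, against 1506 with them. That fit keeps only mice 1180 and 1182 as young mice of the first day. The smaller group and the absence of those 3 mice cannot be told apart.

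Whether the age difference itself changed with cull day was tested by an interaction term. None of the 10 genes passed, and none was at an unadjusted p under 0.05 (edgeR, smallest adjusted p 0.808, Mx2). Over all genes 0 passed in edgeR, with 799 at an unadjusted p under 0.05, and 0 passed in limma-voom and 10 in DESeq2, none of these being among the 10 genes. With mouse 1187 kept, the least even pairs of values were those of the Mx genes, with Ifi27l2b close to Mx2. The log2 fold change of Mx1 was 1.71 for the first day's mice and 0.58 for the second's, and that of Mx2 was 0.11 and 0.81. Ifi27 gave 1.23 and 0.93, and Ifi27l2b 1.77 and 2.46. With 4 or 5 mice in each age and day the errors were wide. The difference between days was -1.15 (SE 0.818) for Mx1, 0.69 (SE 0.375) for Mx2 and 0.67 (SE 0.712) for Ifi27l2b. Leaving out mouse 1187 brought Mx1 to -0.14 (SE 0.547), so its uneven pair rested largely on that mouse. The same step raised Mx2 to 0.88 (SE 0.353) and Ifi27l2b to 1.22 (SE 0.615), and 0 of all genes passed in that fit. That the days were alike is not shown.

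The spread among old mice was described with and without mouse 1187. Where it was the highest mouse, which was not so for Mx2, leaving it out lowers the spread by construction. The residual SD of log2 CPM was greater in old than in young mice for 8 of the 10 genes, with a median log2 ratio of 0.56 over the 10 and 0.07 over all tested genes. Without mouse 1187 it was greater for 2 of the 10, and the medians were -0.37 and -0.09. The exceptions with mouse 1187 kept were Ifi27l2b (-0.71) and Mx2 (-0.29). Ifi44 kept a larger spread among old mice without mouse 1187 (log2 ratio 0.62).

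Co-variation was described after the means of the 4 age by cull day groups had been removed. The libraries share depth, preparation and cell make-up, so these r values describe the mice and carry no p. Over 19 libraries the 45 pairs of genes had a median Pearson r of 0.61, from 0.10 for Mx2 with Rsad2 to 0.90 for Ifi44 with Rtp4. Without mouse 1187 the median was 0.36 and the range -0.36 to 0.73. The 3 genes Ifi44, Xaf1 and Rtp4 stayed close to each other without that mouse (0.71 to 0.73), as did Ifi27 and Ifi27l2a (0.72), which share the overlap described above. Ifi27l2b was most like Mx2 among the 10 (0.65, and 0.56 without mouse 1187). Without that mouse the r of each with Rsad2 was weakly negative (-0.31 for Ifi27l2b and -0.36 for Mx2). Over 19 libraries it was 0.15 for Ifi27l2b and 0.10 for Mx2. Among young mice, mouse 1186 was the highest for Ifi27l2b and Mx2 and the lowest for Rsad2. How far the negative values rest on that mouse was not tested.

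**Figure D2:**
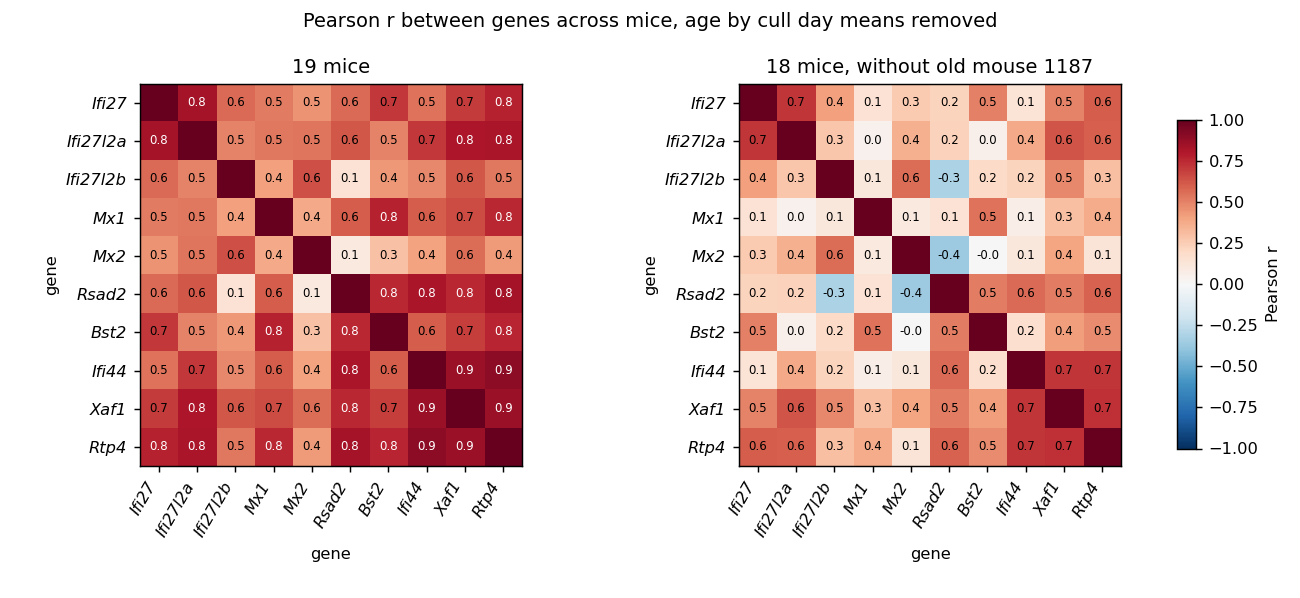
Pearson r between the 10 genes across mice, age by cull day means removed, with all 19 mice on the left and without old mouse 1187 on the right; red is positive and blue negative. The median over 45 pairs is 0.61 on the left and 0.36 on the right, where Ifi44, Xaf1 and Rtp4 keep values above 0.7.

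Among 11605 other genes with a mean of at least 1 CPM, the 8 whose profile was most like the mean of the 10 were Irf7 (r = 0.96), Pilra (0.95), Ifit2 (0.95), Trim30a (0.95), Psmb8 (0.94), Stk17b (0.94), Tmem173 (0.94) and Tlr4 (0.94), over 19 libraries. Without mouse 1187, the library farthest from the median profile, Irf7 was again the most like (0.90), and 5 of the 8 remained, with Apol9a (0.88), Tbc1d1 and Nt5c3b (both 0.82) entering. For single genes the closest non-members were Oas1a for Ifi44 (0.97, and 0.92 without mouse 1187), Ifit1 for Rsad2 (0.95 and 0.88), Trim30a for Xaf1 (0.94 and 0.90) and Irf7 for Rtp4 (0.97 and 0.88). They were Blnk for Ifi27 (0.92 and 0.90) and Ctps2 for Ifi27l2b (0.93 and 0.93). For Ifi27l2a, Mx1, Mx2 and Bst2 the closest gene changed when mouse 1187 was left out, from Ocrl, Tuba1a, Mcl1 and Ifit3 (0.87 to 0.90) to Stip1, Coq2, Acvr2b and 4930481A15Rik (0.79 to 0.88).

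Markers of other liver cells moved with age in the same libraries. Of 14 Kupffer cell and macrophage markers 13 were higher in old mice in edgeR, with a summed level of 107 to 532 CPM in young and 69.4 to 3392 CPM in old mice. Of 12 stellate cell markers all 12 were higher (51.1 to 136 CPM in young, 145 to 512 CPM in old, and at most 260 CPM without mouse 1187), and of 12 endothelial markers 9 (215 to 409 CPM and 230 to 744 CPM). T and NK cell markers (0 of 9 tested) summed to 0.280 to 0.992 CPM in young and 0.912 to 25.99 CPM in old mice, the last in mouse 1187 and at most 2.41 CPM in the others. The 6 B and plasma cell markers summed to 0.279 to 2.72 CPM in young and 1.29 to 18.4 CPM in old mice, at most 4.69 CPM without mouse 1187. The 5 neutrophil markers summed to 0.110 to 4.597 and 0.779 to 14.8 CPM, the last again in mouse 1187 and at most 4.63 CPM in the other old mice, with Ly6g never above 3 counts, and the 5 bile duct markers to 5.44 to 170 and 7.93 to 63.5 CPM. Each list had at least 1 read in some library for every gene. An other-cell score, the mean log2 CPM over the 43 tested markers, was 2.91 ± 0.53 (SD, n = 10) for the young group. The old group had 3.94 ± 0.83 (SD, n = 9), and mouse 1187 had 5.61. The part of these cells in the age differences was not tested.

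When edgeR was given that score as a covariate, the age differences were smaller. The log2 fold change of Ifi27 moved from 1.09 to 0.89 (SE 0.150), that of Ifi27l2a from 1.13 to 0.62 (SE 0.196) and that of Ifi27l2b from 2.08 to 1.19 (SE 0.273). These 3 of 10 were past the threshold in this fit, beside 7.31% of all genes higher. Ifi44 moved from 1.83 to 0.51 (SE 0.252), Xaf1 from 1.29 to 0.52 (SE 0.214) and Rtp4 from 1.06 to 0.24 (SE 0.203). Mx1 (0.09, SE 0.404), Mx2 (0.12, SE 0.208) and Rsad2 (0.07, SE 0.242) were near 0. Bst2 was at 0.31 (SE 0.134). Whether the change in size differed between genes was not tested.

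**Figure D3:**
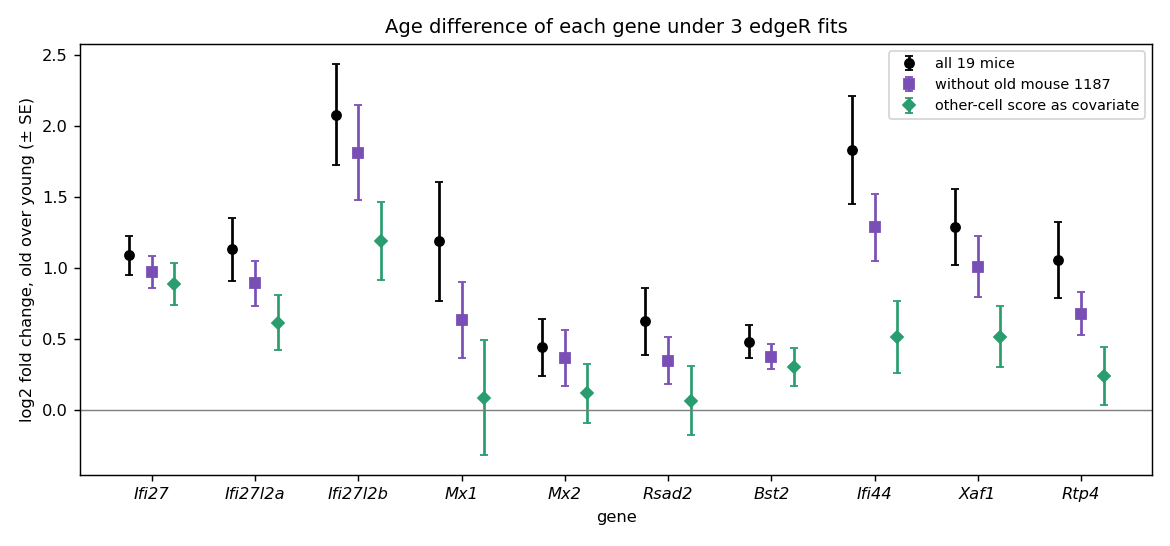
Log2 fold change of each gene, old over young, with its standard error as bars, in 3 edgeR fits: all 19 mice, without old mouse 1187, and adjusted for the other-cell score. The 3 ISG12 genes at the left lie between 0.62 and 1.19 in the covariate fit, where Mx1, Mx2 and Rsad2 lie between 0.07 and 0.12. Rtp4 (0.24), Bst2 (0.31), Ifi44 (0.51) and Xaf1 (0.52) lie between those sets, the last near Ifi27l2a (0.62) relative to the SE bars.

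Old mouse 1183 was singled out after its values were seen and is a single library. It had the lowest Kupffer cell and macrophage level of all libraries (69.4 CPM) and an other-cell score of 2.37, under the mean of the young mice. Its stellate markers were not low: they summed to at least 145 CPM in every old mouse, this one included, against at most 136 CPM in any young mouse. Its Ifi27 (143 CPM) and Ifi27l2a (10.3 CPM) were above every young mouse. Its other genes lay within the range of the young mice. Among them Ifi27l2b (9.99 CPM) was above all young mice but 1186, and Bst2 (129.7 CPM) above all but 1243. Xaf1 (3.25 CPM) was above all but 1184 and 1188. The rest were Ifi44 (1.56 CPM), Rtp4 (7.71 CPM), Rsad2 (6.28 CPM), Mx2 (5.17 CPM) and Mx1 (0.727 CPM).

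Within ages and cull days, the r of each gene with the other-cell score ran from 0.46 (Bst2) to 0.85 (Ifi44) over 19 libraries. In 10 relations, 5 had an adjusted permutation p under 0.05 by Pearson's r and 0 by Spearman's rho. Those 5 were Ifi44 (r = 0.85, permutation p = 0.0025, adjusted p = 0.0246; rho = 0.60, permutation p = 0.014, adjusted p = 0.116), Xaf1 (r = 0.77, adjusted permutation p = 0.0298; rho = 0.61, adjusted p = 0.116), Rtp4 (r = 0.77, adjusted permutation p = 0.0305; rho = 0.52, adjusted p = 0.116), Ifi27l2b (r = 0.73, adjusted permutation p = 0.0276; rho = 0.46, adjusted p = 0.182) and Ifi27l2a (r = 0.68, adjusted permutation p = 0.0363; rho = 0.41, adjusted p = 0.182). Without mice 1180 and 1187, the 2 farthest from the median score, r was 0.72 for Ifi44, 0.51 for Ifi27l2b, 0.46 for Xaf1, 0.31 for Rtp4, 0.22 for Ifi27l2a and -0.29 for Ifi27. The relations of Rtp4 and Ifi27l2a therefore rest largely on those libraries, and those of Xaf1 and Ifi27l2b in part. Within young mice, then old mice without mouse 1187, r was 0.55 and 0.58 for Xaf1 and 0.72 and 0.80 for Ifi27l2b. The same values were 0.58 and 0.30 for Rtp4 and 0.58 and -0.09 for Ifi27l2a. For Ifi44 r was 0.61 within young mice, 0.77 within old mice without mouse 1187, 0.87 among first-day mice and 0.67 among second-day mice. By day, first then second, r was 0.83 and 0.32 for Xaf1, 0.79 and 0.56 for Rtp4 and 0.75 and 0.45 for Ifi27l2a. For Ifi27l2b it was 0.83 on the first day and -0.65 on the second, so that relation did not hold within both days.

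**Figure D4:**
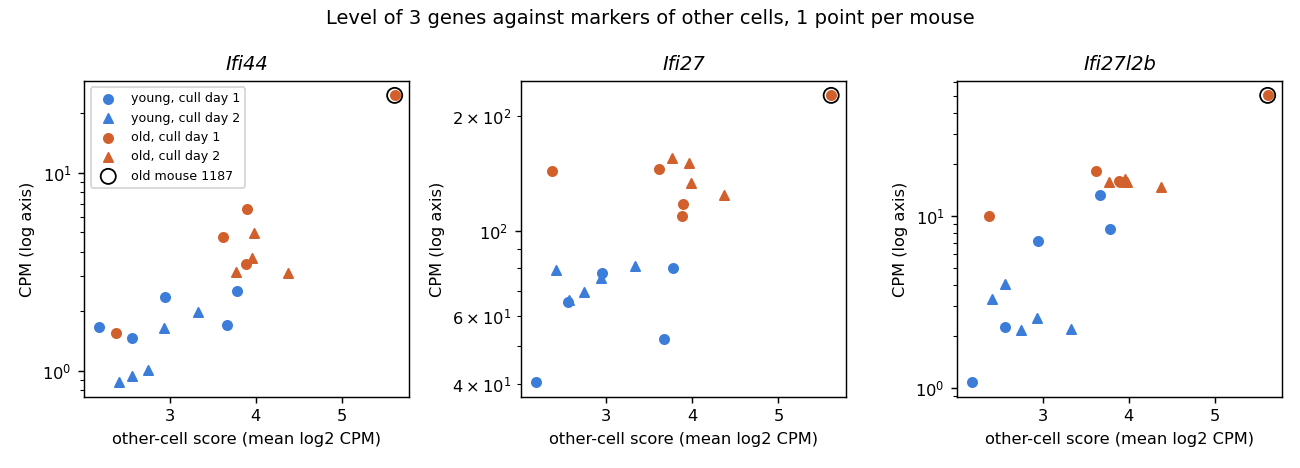
CPM of Ifi44, Ifi27 and Ifi27l2b (log axes) against the other-cell score, 1 point per mouse, young in blue, old in orange, circles for the first and triangles for the second cull day, mouse 1187 ringed. The old mouse at a score of 2.37 is mouse 1183, which lies among the young mice for Ifi44 (1.56 CPM) and above them for Ifi27 (143 CPM).

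The rest of the pathway was read from lists of known genes in edgeR, with adjustment over all genes. The lists were drawn up with age results of these libraries known, so their counts and p-values are not independent evidence of a direction. Interferons themselves were not detected at a testable level: none of the 13 ligand genes passed the filter and none had more than 2 counts in any library. Of 15 tested receptors, signalling genes and interferon regulatory factors, 5 were higher and 0 lower in old mice, beside 16.3% of all genes higher. Irf7, the factor that amplifies interferon production, had 26.4 ± 5.14 CPM in the young group (SD, n = 10) and 62.3 ± 45.2 CPM in the old (SD, n = 9), and rose by 1.20 on the log2 scale (SE 0.252, edgeR adjusted p = 0.00227). Ifngr1, a chain of the interferon gamma receptor, rose by 0.67 and Irf9 by 0.34. Of 7 tested negative regulators 2 were higher and 1 lower: Usp18, which blocks the receptor, rose by 0.99 (SE 0.245, edgeR adjusted p = 0.00625), Pias1 rose by 0.28, and the phosphatase gene Ptpn11 fell by 0.31.

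Of 39 other antiviral effectors tested, 25 were higher and 0 lower, beside 16.3% of all genes higher and 14.5% lower, with a median log2 fold change of 0.77. Those with the smallest p were Ifitm1, which blocks virus entry (1.64, SE 0.284, edgeR adjusted p = 0.000548), Phf11d (1.80, SE 0.401) and Trim30a (1.33, SE 0.306). Of 8 genes whose products are known to bind or act with those of the 10, only Irak1 passed, and it fell by 0.19 (SE 0.0517, edgeR adjusted p = 0.0115), with 8 of 9 old mice below all young mice. Xiap, the partner of Xaf1, was at -0.23 on the log2 scale (SE 0.106, edgeR adjusted p = 0.11), and Birc3 0.26 (SE 0.141, edgeR adjusted p = 0.166). Over all lists 34 of 69 tested genes passed, 32 higher and 2 lower. Adjusted for the other-cell score the balance turned: 4 of the listed genes passed, 1 higher and 3 lower, beside 14.6% of all genes in either direction, so at most 1 of the 25 effectors named as higher did so there. In edgeR fits of single days 0 passed on the first, beside 3.67% of all genes, and 31 on the second, all higher, beside 19.3%.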

How the data were processed

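RNA libraries of hepatocytes from 19 mice were sequenced as stranded paired-end libraries after Trizol-chloroform extraction, per the labels' protocols. The deposited table of estimated counts per gene was written by HOMER's analyzeRepeats.pl on mm10, counting exons, keeping 1 transcript per gene and leaving counts raw, per the file headers. The submitters' processing notes name STAR and HOMER and the builds GRCm38 and mm10. The strand setting of the counting and the handling of reads with several matches are not given in the sources used here. The table lists an exon Length in bases for each gene (other unit), per the file headers.

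The deposited counts were steps of 0.5 (29.2% not whole) and were rounded to whole counts before tests. Age was fitted with edgeR 4.0.16 (R 4.3.3): quasi-likelihood test, TMM scaling, cull day as a covariate, filterByExpr by age with a minimum count of 10 (12269 genes), Benjamini-Hochberg adjustment over all genes, threshold 0.05. Each SE was taken from the log2 fold change and the F statistic, as size over root F. Log2 CPM used a prior count of 2. The fit was tested on simulated data. The other-cell score averages the 43 markers that passed the filter, from every list but that of hepatocytes. No T or NK cell marker passed, so those cells are not in it. Its relations used 100000 permutations of residuals within age by cull day groups. Alternatives used DESeq2 1.42.0, limma 3.58.1, other scaling and filters, and left out each mouse. Leaving out the 3 young mice of low albumin share, unrounded counts and the AANNGAAA motif were added after seeing the data.

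The 10 genes and all lists were chosen with earlier results of these data known. Named genes follow a rule: all 10 members, the 8 non-members most like their mean profile, the closest gene to each member, the 3 smallest p of each pathway list with up to 3 in its minority direction, and the nearest genes on either side of each member. No library number occurs in both ages, and nothing was paired. Coordinates are those of the deposited table on mm10.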

Additional observations from a re-analysis of the deposited data

Results flagged for a closer look

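Old mouse 1187 lay far above the other old mice for 8 of the 10 genes, by the gap to the nearest mouse relative to the range of the group. Its levels were 227 CPM for Ifi27, 28.9 CPM for Ifi27l2a, 50.3 CPM for Ifi27l2b, 4.25 CPM for Mx1, 25.1 CPM for Rsad2, 24.7 CPM for Ifi44, 15.5 CPM for Xaf1 and 41.2 CPM for Rtp4. The next old mouse had 155 CPM of Ifi27, 12.5 CPM of Ifi27l2a, 18.3 CPM of Ifi27l2b, 1.45 CPM of Mx1, 12.3 CPM of Rsad2, 6.58 CPM of Ifi44, 7.08 CPM of Xaf1 and 15.1 CPM of Rtp4. The rule is meant to mark about 1 in 20 groups of normally distributed values, and 20 groups were checked. CPM need not follow that distribution, so the number of marks is not compared with that rate. All 8 marks fell on this mouse, and no young mouse was marked. The genes vary together, so the 8 are not separate observations.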

How the results depend on the processing

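The log2 fold change of each of the 10 genes was above 0 in all alternatives run. It was smaller than its SE for Mx1 (0.09, SE 0.404), Mx2 (0.12, SE 0.208) and Rsad2 (0.07, SE 0.242) with the other-cell covariate, and for Mx2 on the first cull day alone (0.11, SE 0.301). It ranged from 0.89 to 1.23 for Ifi27, from 1.19 to 2.88 for Ifi27l2b and from 0.51 to 2.07 for Ifi44. Over all genes 3785 passed by age. The count was 1786 with the other-cell covariate, 450 on the first cull day alone and 2388 on the second. Library totals alone gave 2098 higher and 1172 lower genes, against 2005 and 1780. The pathway lists gave 34 genes (32 higher, 2 lower), 4 with the covariate (1 higher, 3 lower) and 0 on the first cull day alone. By cull day 1506 genes passed, 971 with no filter, 0 without the 3 young mice of low albumin share and 609 to 2335 when each mouse was left out in turn. The age by cull day term gave 0 genes, 10 in DESeq2, and 0 to 1 when each mouse was left out. Of the 8 genes most like the members, 5 remained without mouse 1187 and 3 when no means were removed. The cause of these shifts was not tested. No paired analysis was possible because library numbers are not shared between ages. Depth limits Mx1 most, at 3.5 counts in its lowest library.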

Other observations

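The nearest genes on either side of the 10 members were read as well, 15 genes in all. Of the 10 that passed the filter, 4 were higher in old mice in edgeR and 0 lower, beside 16.3% and 14.5% of all tested genes. Cmpk2, which lies 12762 bases from Rsad2 and encodes a nucleotide kinase of the interferon response, had 4.94 ± 0.95 CPM in the young group (SD, n = 10) and 8.97 ± 4.73 CPM in the old (SD, n = 9), and rose by 0.85 on the log2 scale (SE 0.219, edgeR adjusted p = 0.00818). Rnf144a, on the other side of Rsad2, rose by 1.05 (SE 0.218, edgeR adjusted p = 0.00211). Plvap, an endothelial gene beside Bst2, rose by 1.61 (SE 0.329, edgeR adjusted p = 0.0019), and Mvb12a on its other side was at 0.02 (SE 0.0702, edgeR adjusted p = 0.859). Adgrl4, an endothelial gene 185841 bases from Ifi44, rose by 0.57 (SE 0.186, edgeR adjusted p = 0.0268). Ddx24 and Ppp4r4, which flank the ISG12 genes, were at 0.13 (SE 0.0585, edgeR adjusted p = 0.0931) and -0.20 (SE 0.179, edgeR adjusted p = 0.409).

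Ifi44l, the gene next to Ifi44, is listed at 0 counts in all 19 libraries, while Ifi44 had up to 565.5 counts in mouse 1187. Fbxo39, which starts 710 bases past Xaf1, had at most 1 count in any library.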
